A study of Mus musculus with 12 samples.

Results

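A set of 9 genes that make, bind, break down or respond to retinoic acid was followed across the 12 arrays of the study: Stra6, Rdh10, Aldh1a1, Aldh1a2, Aldh1a3, Crabp1, Crabp2, Cyp26b1 and Rarb. They are 9 of the 18193 genes measured and are read by 12 of the 45037 probe sets, each paired with a single gene. Aldh1a3 has 3 probe sets, Rdh10 has 2 and each other gene has 1. They were listed by name, chosen by a reading of the group differences of these same arrays, so their values are given as a description, without a test. Tests were kept for 53 other genes of the retinoid pathway. Their list was also drawn up with earlier results of these data known. The shares called among them are therefore not independent of the data.

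The cells were cultured astrocytes from the hippocampus and cortex of C57Bl/6j mice that carry green fluorescent protein (eGFP), in all 4 groups. Neonatal cells (labelled 3 d, with isolation at 2 days in the protocol) were grown without Percoll or G5 supplement. Adult cells (6 to 8 weeks) were isolated with Percoll and grown with G5 supplement, so age cannot be told apart from isolation and medium. Each culture lay for 22 h on a brain section from an APdE9 mouse or a wild-type littermate before the green cells were picked off. APdE9 mice carry a chimeric mouse/human APPSwe and a PS1-dE9 transgene, each under its own mouse prion protein promoter element. Each group has 3 arrays, called biological replicates in the labels. Every array measured RNA from a pool (n = 3), so the spread between arrays is one between pools and may be partly technical. The number of arrays limits the precision.

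Retinol enters cells through receptors such as Stra6 and is oxidised to retinaldehyde and then, irreversibly, to retinoic acid. Retinoic acid is carried by small binding proteins, switches on genes through nuclear receptors that pair with retinoid X receptors, and is removed by enzymes of the Cyp26 family. In the brain the meninges are a known source of retinoic acid through Aldh1a2, and several genes of the system are themselves induced by retinoic acid.

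Each value below is a centred log2 signal, that is, the array's RMA signal less that probe set's median in the whole set of 12. The sign and size of differences can be read from it, but not the level, so it cannot be said which genes lay above background or which gene was more abundant than another. The log base is not stated and was taken as 2. Values are listed in the order of the arrays numbered 1, 2 and 3. A section difference is APdE9 minus wild type, an age difference is adult minus neonatal, and the error is the standard error (SE) of a limma fit to all 12 arrays (n = 3 arrays per group).

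Rarb is a textbook target of its own ligand, and Cyp26a1, a retinoic acid hydroxylase, is another. Their promoter windows are shown because both hold a direct repeat of the motif that the receptors bind, and that of Aldh1a2 because this gene had the largest difference of the 9. The windows run from 250 bases before to 50 after the start site, 5′ to 3′ along the gene (RefSeq, GRCm38.p6). They lie at chr14:16575427-16575726 on the minus strand (Rarb), chr19:37697558-37697857 on the plus strand (Cyp26a1) and chr9:71215539-71215838 on the plus strand (Aldh1a2). Capitals mark the 2 repeats of 6 letters.
Rarb: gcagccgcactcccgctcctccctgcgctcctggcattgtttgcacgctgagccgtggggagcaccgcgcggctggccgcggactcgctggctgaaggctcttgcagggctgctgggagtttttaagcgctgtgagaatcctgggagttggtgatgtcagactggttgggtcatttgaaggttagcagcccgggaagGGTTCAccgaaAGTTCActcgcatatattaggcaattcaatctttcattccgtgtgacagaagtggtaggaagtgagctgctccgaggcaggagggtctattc
Cyp26a1: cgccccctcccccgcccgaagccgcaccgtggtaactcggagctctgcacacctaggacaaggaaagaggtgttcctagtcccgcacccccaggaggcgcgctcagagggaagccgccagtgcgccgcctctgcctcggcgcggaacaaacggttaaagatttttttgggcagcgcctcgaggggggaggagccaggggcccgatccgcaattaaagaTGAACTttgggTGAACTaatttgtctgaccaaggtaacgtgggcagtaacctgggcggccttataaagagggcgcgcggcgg
Aldh1a2: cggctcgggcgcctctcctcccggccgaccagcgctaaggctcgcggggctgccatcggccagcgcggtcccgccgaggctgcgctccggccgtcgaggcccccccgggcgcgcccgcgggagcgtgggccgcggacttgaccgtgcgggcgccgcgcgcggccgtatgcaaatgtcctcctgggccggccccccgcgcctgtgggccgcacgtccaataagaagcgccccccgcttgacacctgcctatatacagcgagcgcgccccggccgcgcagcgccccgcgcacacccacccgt

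In Rarb the repeat reads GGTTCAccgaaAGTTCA and spans bases -53 to -37 from the start site. In Cyp26a1 it lies on the opposite strand between -32 and -16, where it reads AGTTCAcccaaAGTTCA. Both match the letters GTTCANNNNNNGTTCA, repeats parted by 5 bases. The search took GTTCA or GGTCA for either repeat on both strands, with the 6-letter repeats parted by 5, 2 or 1 bases. Of all 32851 promoter windows 0.247% held the form with 5 bases between and 1.05% held any of these forms. Among the 9 genes, windows were found for Aldh1a1, Aldh1a2, Crabp1, Cyp26b1, Rarb and Stra6, 10 windows in all, and only that of Rarb held a match. Of 46 other pathway genes with a window, Cyp26a1 and the carotene-cleaving enzyme gene Bco1 held one, the latter with 1 base between. A match describes the letters of the window, and no match says only that these letters are not in it.

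Aldh1a2, Crabp2 and Crabp1 had the widest ranges over the 12 arrays. As gene values, the ages stood apart on both sections for Aldh1a1, Aldh1a2, Aldh1a3, Crabp1, Crabp2, Cyp26b1 and Rarb. Aldh1a1 did so in opposite directions, 0.29 ± 0.09 on wild-type and -0.58 ± 0.09 on APdE9 sections. For Aldh1a3 on wild-type sections the probe set with the widest range carried it, at -0.94 ± 0.32. The other probe sets overlapped there, at 0.10 ± 0.13 and 0.12 ± 0.10. Alternative fits brought that gene difference (-0.24 ± 0.14) as near 0 as -0.004. The sections stood apart for Crabp1, Crabp2 and Aldh1a1 in adult cells, and for Aldh1a3, Aldh1a1 and Cyp26b1 in neonatal cells. In neonatal cells the arrays of the 2 sections did not overlap for 3 of the 9 genes, where 17.7% of all genes did not, and in adult cells again for 3, where 36% did not. Between ages 8 of 9 did not overlap on wild-type sections and 7 of 9 on APdE9 sections, where 42% and 37.2% of all genes did not. Since these comparisons were in view when the genes were listed, nothing is read from the counts.

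**Figure D1:**
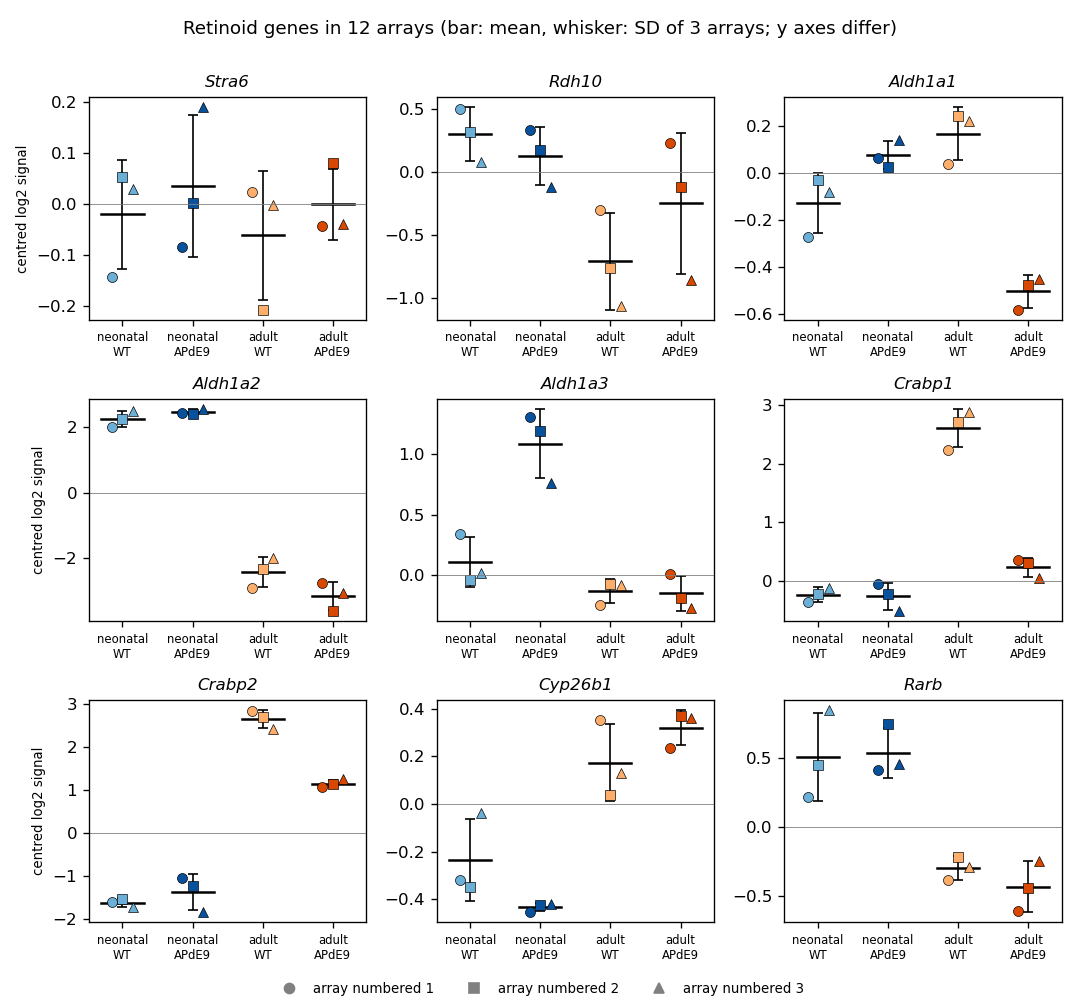
Centred log2 signal (y axis, scale differs between panels) of the 9 retinoid genes in each of the 12 arrays, by group on the x axis. Points are arrays, shaped by their number, the bar is the mean and the whisker the SD of 3 arrays. Aldh1a2 is high in neonatal cells, Crabp1 and Crabp2 are high in adult cells and highest on wild-type sections, and Aldh1a3 is high in neonatal cells on APdE9 sections.

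Stra6, the receptor that takes retinol from its plasma carrier, was flat: its 12 values ran from -0.21 to 0.19, and its range of 0.40 was at percentile 19.6 of all genes. Its 4 group means lay between -0.06 and 0.04 and all groups overlapped.

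Rdh10 oxidises retinol to retinaldehyde, the first and reversible step. Its gene values were 0.51, 0.32 and 0.09 in neonatal cells on wild-type sections and 0.33, 0.17 and -0.12 on APdE9 sections. In adult cells they were -0.30, -0.76 and -1.06 on wild-type sections and 0.24, -0.12 and -0.86 on APdE9 sections. In each of the 4 groups the array numbered 1 was the highest and the array numbered 3 the lowest, in both probe sets, a pattern that 1.62% of all genes shared. On wild-type sections the adult arrays lay below the neonatal ones (difference -1.01 ± 0.26). The section difference was 0.46 ± 0.26 in adult cells and -0.18 ± 0.26 in neonatal cells, with overlapping groups in both. Differences between same-numbered arrays had 1 sign in each comparison. The neonatal section differences were -0.17, -0.15 and -0.21, and the age differences on APdE9 sections -0.10, -0.29 and -0.74. In both comparisons all same-numbered arrays deviated together over all genes. The adult section differences were 0.53, 0.64 and 0.20. In that comparison the arrays numbered 1 and 3 deviated together (correlations 0.348 and 0.496) and those numbered 2 did not (-0.147). A replicate block lowered the SE of Rdh10 from 0.26 to 0.12, and that of its difference of section effects (0.63) from 0.36 to 0.17. The adult section difference ranged from 0.22 without adult APdE9 replicate 1 to 0.76 without adult APdE9 replicate 3, and was 0.28 without adult wild-type replicate 3. The age difference on APdE9 sections (-0.38 ± 0.26) was -0.07 without adult APdE9 replicate 3 and -0.62 without adult APdE9 replicate 1.

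The 3 retinaldehyde dehydrogenases, which make retinoic acid in the committed step, each had a profile of its own. Aldh1a2, the main enzyme of the embryo and of the meninges, read 2.00, 2.25 and 2.49 in neonatal cells on wild-type sections and 2.45, 2.39 and 2.57 on APdE9 sections. In adult cells it read -2.94, -2.35 and -2.00 on wild-type sections and -2.78, -3.62 and -3.06 on APdE9 sections. All 6 neonatal arrays were at least 4 log2 units above all 6 adult arrays. The age difference was -4.68 ± 0.24 on wild-type sections, 25.6-fold if the base is 2, and -5.63 ± 0.24 on APdE9 sections, 49.4-fold. Its range of 6.19 was at percentile 99.8 of all genes.

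The section mattered less for Aldh1a2 than age did. In neonatal cells the difference was 0.22 ± 0.24 and in adult cells -0.73 ± 0.24, with overlapping groups in both. Quantile normalization of the arrays widened the adult difference to -1.38.

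Aldh1a1, the enzyme best known from dopamine neurons and the eye, moved in opposite directions with the section at the 2 ages. In neonatal cells it read -0.27, -0.03 and -0.08 on wild-type sections and 0.06, 0.03 and 0.14 on APdE9 sections. In adult cells it read 0.04, 0.24 and 0.22 on wild-type sections and -0.58, -0.48 and -0.45 on APdE9 sections. Neither pair of groups overlapped. The section differences were 0.20 ± 0.09 in neonatal and -0.67 ± 0.09 in adult cells, and adult cells on APdE9 sections were the lowest of the 4 groups. The neonatal difference was 0.13 without neonatal wild-type replicate 1.

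Aldh1a3 was set apart by the section in neonatal cells. The probe set with the widest range read 1.08, -0.07 and 0.39 on wild-type sections and 2.95, 2.76 and 1.901 on APdE9 sections, a difference of 2.07 ± 0.32. In adult cells it read between -0.69 and -0.32 on wild-type sections and between -0.76 and 0.07 on APdE9 sections, a difference of 0.09 ± 0.32. The other 2 probe sets had the same direction in neonatal cells at a smaller size, 0.52 ± 0.13 and 0.35 ± 0.10, and in all 3 the neonatal groups did not overlap. As the mean of the 3 the gene difference was 0.98 ± 0.14, and as their median 0.54. In adult cells the probe sets disagreed in sign, from -0.20 to 0.09.

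**Figure D2:**
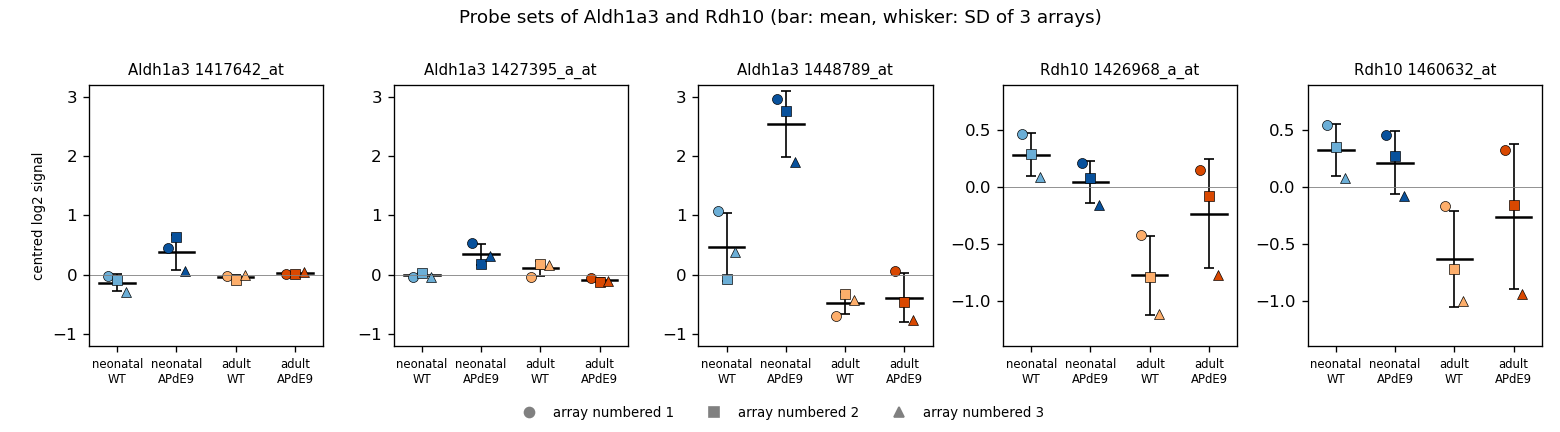
Centred log2 signal of the 3 probe sets of Aldh1a3 and the 2 of Rdh10 in each array, by group, with points shaped by array number, the mean as a bar and the SD of 3 arrays as a whisker. Neonatal cells on APdE9 sections have the highest mean in all 3 panels of Aldh1a3, by most in 1 panel. In another panel they overlap adult cells on wild-type sections. For Rdh10 the arrays numbered 1, 2 and 3 keep their order in every group.

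Retinoic acid in the cytosol is held by Crabp1 and Crabp2, the latter known for handing it to receptors in the nucleus. Both were high in adult cells, and both were lower there on APdE9 sections. Crabp1 read 2.24, 2.71 and 2.88 in adult cells on wild-type sections, and 0.36, 0.30 and 0.05 on APdE9 sections. In neonatal cells it read -0.35, -0.22 and -0.11 on wild-type sections and -0.05, -0.23 and -0.51 on APdE9 sections. The adult groups stood well apart (section difference -2.37 ± 0.16), and the neonatal groups overlapped (-0.03 ± 0.16). The age difference was 2.84 ± 0.16 on wild-type and 0.50 ± 0.16 on APdE9 sections.

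Crabp2 read 2.83, 2.69 and 2.42 in adult cells on wild-type sections and 1.06, 1.13 and 1.24 on APdE9 sections. In neonatal cells it read -1.62, -1.53 and -1.73 on wild-type sections and -1.06, -1.23 and -1.84 on APdE9 sections. Unlike Crabp1, it stayed far above the neonatal arrays in adult cells on either section. Its adult section difference was -1.50 ± 0.17, its neonatal one 0.25 ± 0.17, and its age difference 4.27 ± 0.17 on wild-type and 2.52 ± 0.17 on APdE9 sections. Quantile normalization gave 4.98 and 3.37 for age.

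Cyp26b1, which hydroxylates retinoic acid for removal, was higher in adult cells. It read -0.32, -0.35 and -0.04 in neonatal cells on wild-type sections, -0.45, -0.42 and -0.42 on APdE9 sections, and between 0.04 and 0.37 in the 6 adult arrays. The age difference was 0.41 ± 0.10 on wild-type and 0.75 ± 0.10 on APdE9 sections. The section differences were smaller, -0.20 ± 0.10 in neonatal cells, where the groups did not overlap, and 0.15 ± 0.10 in adult cells, where they did. The former was -0.10 without neonatal wild-type replicate 3, and the latter 0.08 without adult wild-type replicate 2 and 0.24 without adult wild-type replicate 1.

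Rarb, the retinoic acid receptor whose promoter repeat is printed above, ran the other way. It read 0.22, 0.45 and 0.84 in neonatal cells on wild-type sections and 0.41, 0.74 and 0.45 on APdE9 sections. In adult cells it read -0.39, -0.22 and -0.29 on wild-type sections and -0.61, -0.45 and -0.25 on APdE9 sections. All neonatal arrays lay above all adult arrays, and the sections overlapped at both ages. The age difference was -0.80 ± 0.15 on wild-type and -0.97 ± 0.15 on APdE9 sections, and the section difference 0.03 ± 0.15 in neonatal and -0.13 ± 0.15 in adult cells.

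Over the 12 arrays Aldh1a2 ran with Rarb (Pearson r = 0.94) and against Crabp2 (-0.91) and Cyp26b1 (-0.93), and Crabp1 ran with Crabp2 (0.87). These correlations mostly restate the 4 group means. Within groups, after each group's mean was removed, they were 0.25, -0.44, -0.30 and 0.04 over the same 12 arrays.

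Among 16325 named genes, those whose gene values over the 12 arrays were most like a member's were found by Pearson r. For Aldh1a2 they were Alox5ap (r = 0.992), a leukotriene synthesis adaptor of myeloid cells, Hspb6 (0.992) and Armh4 (0.991), and 315 genes had r over 0.95. For Crabp2 they were Brinp3 (0.993), the kainate receptor gene Grik2 (0.992) and the ephrin receptor gene Epha3 (0.988). For Crabp1 they were the arginine methyltransferase gene Prmt8 (0.992), Fggy (0.987) and Far1 (0.984), which makes fatty alcohols. For Rarb they were the transcription factor gene Nfib (0.965), Tnfrsf19 (0.962) and Septin8 (0.959). For Aldh1a3 they were the chloride transporter gene Clcn5 (0.968), the interleukin 7 receptor gene Il7r (0.951) and Lrp12 (0.928).

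The remaining members had Socs7 (0.963), Itga7 (0.961) and the receptor gene Notch1 (0.949) for Rdh10, and Mcoln1 (0.973), Acaa2 (0.970) and Plag1 (0.965) for Cyp26b1. For Aldh1a1 they were Guca1a (0.946), Gzme (0.940) and Tmem42 (0.935), and for Stra6, which hardly varied, Prl3c1 (0.851), Inhbc (0.817) and Aars2 (0.813). With 4 groups set apart by age, many genes share such profiles.

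Of 60 other pathway genes listed, 53 were measured: 8 for carriage and binding, 23 enzymes, 9 receptors and their coregulators and 13 genes known to be induced by retinoic acid in other cells. The first question was how neonatal cells on APdE9 sections differed from those on wild-type sections. There 1 of 53 rose and 3 fell (limma, Benjamini-Hochberg adjusted p of at most 0.05 over all genes). These are 7.55% of the 53, where 3.76% of all genes were called, and the median difference was -0.01 against 0.00 over all genes. Rdh5, a retinol dehydrogenase, fell from 0.45, 0.60 and 0.42 to -0.23, -0.32 and -0.08 (difference -0.70 ± 0.09, adjusted p = 0.00115). Rpe65, the retinoid isomerase of the eye's visual cycle, fell from 0.85, 1.03 and 0.67 to -0.04, 0.07 and 0.04 (-0.83 ± 0.14, adjusted p = 0.00692). In both the groups stood apart.

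Stra6l, a relative of Stra6 that takes up retinol in the liver, rose by 0.80 ± 0.19 (limma adjusted p = 0.0353), and Tgm2, a transglutaminase induced by retinoic acid in many cells, fell with a difference of -0.47 ± 0.12 (adjusted p = 0.0472). With single arrays left out, the adjusted p of Stra6l was 0.0628, 0.0966 and 0.108 for neonatal wild-type replicates 1, 2 and 3. It was 0.0771 and 0.0757 for neonatal APdE9 replicates 1 and 3. It was 0.0569 without adult wild-type replicate 2 and 0.0556 without adult APdE9 replicate 2. For Tgm2 it exceeded 0.05 whichever of the 6 neonatal arrays was left out, at 0.054, 0.125 and 0.149 (wild type) and 0.168, 0.101 and 0.0557 (APdE9). Without adult wild-type replicate 1, 2 and 3 it was 0.0645, 0.0661 and 0.0513, and without adult APdE9 replicate 2 it was 0.0707.

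The section comparison in these neonatal cells called 3.76% of all genes. There 4 of 10 astrocyte markers were lower on APdE9 sections and none higher, with a median of -0.34. Their list means ran from 1.01 to 1.09 on wild-type and 0.58 to 0.70 on APdE9 sections. Of 11 microglia markers 2 were higher (median 0.48, list means 1.48 to 1.97 and 1.99 to 2.17). Of 6 ependymal and choroid plexus markers 2 were lower and none higher, Foxj1 at -0.62 and Rsph4a at -1.46, with list means from 0.55 to 1.13 on wild-type and 0.30 to 0.48 on APdE9 sections. Of 6 oligodendrocyte markers 2 were lower, Cnp at -0.59 and Olig1 at -0.43, and 1 higher, with list means from 0.33 to 0.42 and 0.24 to 0.35. Their part in the differences of Aldh1a3, Rdh5 and Rpe65 was not tested. In pools of cells, fewer cells of a type and less RNA per cell cannot be told apart.

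In adult cells on APdE9 sections 5 of the 53 pathway genes rose and 5 fell, 18.9% against 17.7% of all genes, with a median of 0.06 against 0.05 over all genes. Fabp5, a fatty acid carrier that can also bring retinoic acid to another nuclear receptor, had the largest difference. It read -1.14, -0.71 and -0.51 on wild-type sections and -2.89, -2.86 and -2.89 on APdE9 sections (-2.09 ± 0.13, limma adjusted p = 7.75e-07), and its 2 probe sets gave -2.08 and -2.10. Tgm2 fell with it, from -0.81, -0.83 and -0.61 to -2.15, -1.94 and -1.80 (-1.21 ± 0.12, adjusted p = 2.08e-05), although its 6 probe sets ran from -1.68 to -0.18. Btg2, an antiproliferative gene (-1.72 ± 0.25, adjusted p = 0.000514), and the alcohol dehydrogenase gene Adh1 (-0.62 ± 0.08, adjusted p = 0.000133) also fell.

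Rarres1, named for its induction by a synthetic retinoid, rose from 0.88, 1.37 and 1.49 to 2.13, 2.23 and 2.23 (0.96 ± 0.15, limma adjusted p = 0.000888). Rdh5 rose from -0.77, -0.68 and -0.72 to 0.25, 0.24 and 0.08 (0.91 ± 0.09, adjusted p = 2.08e-05). The orphan receptor gene Nr2f1 (0.66 ± 0.15, adjusted p = 0.00923) and the retinoid X receptor gene Rxrb (0.57 ± 0.13, adjusted p = 0.00723) rose as well. Cyp26a1, the hydroxylase printed above, read -0.01, -0.28 and -0.25 on wild-type and 0.39, 0.26 and 0.24 on APdE9 sections (0.48 ± 0.13, adjusted p = 0.0247). Its adjusted p was 0.0977 and 0.0763 without adult wild-type replicate 2 and 3, and 0.0782 and 0.0598 without adult APdE9 replicate 1 and 2. Rdh11, a retinal reductase (-0.33 ± 0.08, adjusted p = 0.013), was at 0.0549 without adult wild-type replicate 3 and 0.0536 without adult APdE9 replicate 2.

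Of the genes known as retinoic acid targets, 2 of 13 rose and 2 fell in adult cells, while Crabp1 and Crabp2 were lower and Rarb overlapped. Markers of other cells moved there too, in a comparison that called 17.7% of all genes. Of 8 pericyte and smooth muscle markers 2 were lower on APdE9 sections, Tagln at -3.37 and Acta2 at -1.38. By sign 4 of the 8 were above 0 and 4 below, with a median of -0.02 (list means 0.45 to 0.55 on wild-type and -0.14 to -0.004 on APdE9 sections). Of 11 meningeal fibroblast markers 3 were lower and 2 higher (0.39 to 0.57 and -0.04 to 0.29), and of 11 microglia markers 5 were higher and 1 lower (-2.45 to -2.17 and -1.63 to -1.53). Of 10 astrocyte markers 5 were higher and 1 lower (-0.80 to -0.76 and -0.66 to -0.65). Of 6 oligodendrocyte markers 3 were higher and none lower, Olig1 by 1.30 (-0.56 to -0.52 and -0.18 to -0.05). Their part in the differences of Crabp1, Crabp2 and Fabp5 was not tested.

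**Figure D3:**
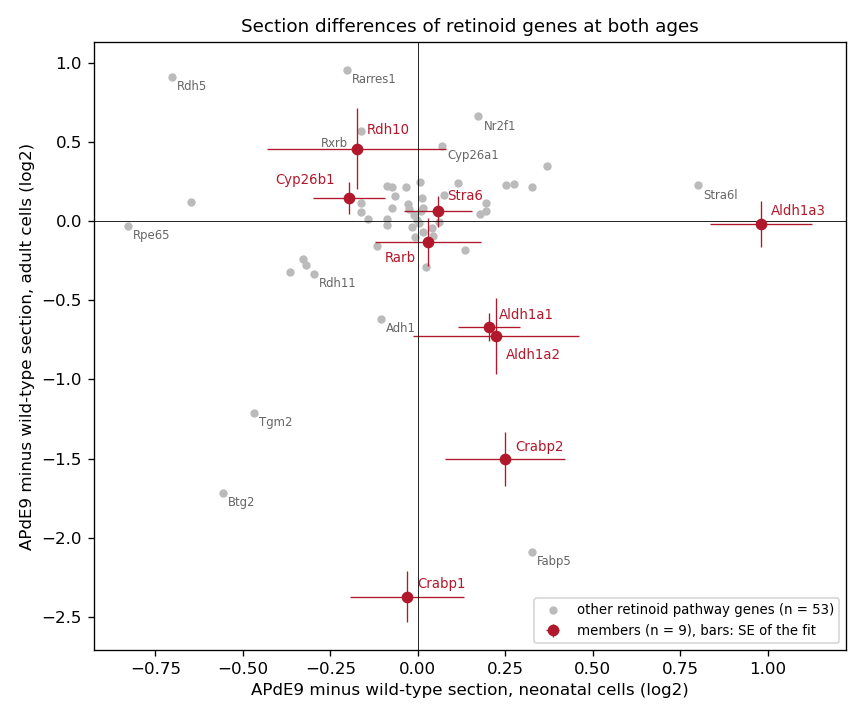
Section difference (APdE9 minus wild type, log2) in neonatal cells on the x axis against that in adult cells on the y axis, for the 9 members (red, bars are the SE of the fit) and 53 other retinoid pathway genes (grey). Named grey genes passed an adjusted p of 0.05 at either age. Crabp1, Crabp2 and Fabp5 are low on the adult axis with little difference in neonatal cells, Aldh1a3 is displaced along the neonatal axis, and Rdh5 is lower in neonatal and higher in adult cells.

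Whether the section acted differently at the 2 ages was tested in the same limma fit as the difference of the section effects, and 7 of 53 pathway genes passed, 13.2% against 10.1% of all genes. The difference was above 0 for 4 and below 0 for 3. Rdh5 fell in neonatal and rose in adult cells (difference of effects 1.61 ± 0.12, adjusted p = 1.28e-05). Fabp5 (-2.42 ± 0.19, adjusted p = 1.28e-05) was at 0.33 in neonatal cells, and its fall came in adult cells. Rarres1 (1.16 ± 0.21, adjusted p = 0.00506), Adh1 (-0.51 ± 0.11, 0.0101), Tgm2 (-0.74 ± 0.17, 0.0142), Rxrb (0.74 ± 0.18, 0.0213) and Rpe65 (0.80 ± 0.20, 0.0251) also differed. The call of Rpe65 was lost when neonatal wild-type replicate 2 (adjusted p = 0.0704) or neonatal APdE9 replicate 1 (0.0549) was left out, and it was 0.0694 and 0.0586 without adult wild-type replicate 2 and 3, and 0.0597 without adult APdE9 replicate 2. For Rxrb it was 0.0531 without neonatal APdE9 replicate 2, 0.0516 and 0.0563 without adult wild-type replicate 1 and 2, and 0.0594 without adult APdE9 replicate 2. With quantile normalization it was 0.130 for Adh1 and 0.0546 for Rpe65, and with the median over its probe sets the difference of Tgm2 was -1.22. The probe sets of Tgm2 disagreed in sign, from -1.39 to 0.33. Among the members, for which no test is given, the same quantity was -2.34 ± 0.23 for Crabp1, -1.75 ± 0.24 for Crabp2, -0.997 ± 0.21 for Aldh1a3 and -0.87 ± 0.13 for Aldh1a1.

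The age comparisons called more genes than the section comparisons, in the pathway and among all genes. On wild-type sections 10 of 53 were higher and 15 lower in adult than in neonatal cells (47.2% against 30.1% of all genes, median -0.06 against 0.01). On APdE9 sections 11 were higher and 10 lower (39.6% against 23.5%, median 0.09 against 0.05). By role, none of the 8 carriers rose with age and 3 fell on wild-type and 2 on APdE9 sections. Of the 23 enzymes 4 rose and 5 fell on wild-type sections, and 4 and 3 on APdE9 sections. Of the 9 receptors and coregulators 2 rose and 2 fell, and 4 and 1 in the same order. These comparisons share no array with each other, but each shares arrays with both section comparisons, and both set the same culture conditions against each other. Rlbp1, which carries retinaldehyde in the glia of the retina, read between 1.28 and 2.08 in the 6 neonatal arrays and between -2.01 and -1.28 in the 6 adult arrays. Its age difference was -3.52 ± 0.22 on wild-type sections (limma adjusted p = 1.18e-07) and -3.36 ± 0.22 on APdE9 sections (2.42e-07).

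Dhrs3, a retinaldehyde reductase that retinoic acid induces, was lower in adult cells by -1.88 ± 0.10 on wild-type sections (limma adjusted p = 3.18e-08) and -1.94 ± 0.10 on APdE9 sections (3.44e-08). Its neonatal arrays read between 0.80 and 1.22 and its adult arrays between -1.01 and -0.80, so the ages stood apart. The same held for 42% of all genes on wild-type and 37.2% on APdE9 sections. Tgm2 was also lower (-2.00 ± 0.12 and -2.74 ± 0.12, adjusted p = 5.84e-08 and 5.27e-09), as was Fabp5 (-1.37 ± 0.13 and -3.79 ± 0.13, 5.02e-06 and 1.09e-09). Ttr, which binds the plasma carrier of retinol and is a product of the choroid plexus, was lower on wild-type sections (-2.15 ± 0.51, adjusted p = 0.00606). Rdh5 was lower there too (-1.21 ± 0.09, adjusted p = 4.02e-07), but on APdE9 sections it was higher in adult cells, at 0.40. On APdE9 sections Stra6l (-1.12 ± 0.19, adjusted p = 0.000714) and the chemerin gene Rarres2 (-0.69 ± 0.08, 4.68e-05) were lower. Neither was particular to these sections. On wild-type sections Stra6l was lower too (-0.55 ± 0.19, limma adjusted p = 0.0429). Rarres2 read there between 0.13 and 0.30 in neonatal arrays and between -0.54 and -0.29 in adult arrays.

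Higher in adult cells were the retinol-oxidising alcohol dehydrogenase genes Adh7 (2.56 ± 0.14 on wild-type and 2.54 ± 0.14 on APdE9 sections, limma adjusted p = 2.65e-08 and 4.11e-08) and Adh1 (2.07 ± 0.08 and 1.56 ± 0.08, 9.14e-10 and 1.56e-08). Rarres1 was higher by 2.19 ± 0.15 and 3.35 ± 0.15 (adjusted p = 2.64e-07 and 8.65e-09), and the orphan receptor gene Nr2f2 by 0.65 ± 0.14 and 0.63 ± 0.14 (0.00371 and 0.00574). On wild-type sections Rai14 (0.80 ± 0.13, adjusted p = 0.000385) and Btg2 (0.90 ± 0.25, 0.0164) rose, the latter at 0.0631 when neonatal wild-type replicate 3 was dropped and 0.0541, with a difference of 0.57, when adult wild-type replicate 2 was. On APdE9 sections Rxrb (0.53 ± 0.13, adjusted p = 0.00795) and the cytochrome gene Cyp1b1 (0.50 ± 0.12, 0.00992) were higher. Genes are named by the size of their difference in each comparison, so a gene named for 1 section may also differ on the other. Probe sets of Rai14 ran from 0.32 to 0.73 on APdE9 sections, and those of Cyp1b1 from -0.26 to 0.92 on wild-type sections.

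Of the known target genes 4 of 13 were higher and 5 lower in adult cells on wild-type sections, where 30.1% of all genes were called. On APdE9 sections 3 were higher and 4 lower, where 23.5% of all genes were called.

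Markers of other cell types also differed with age, in comparisons that called 30.1% of all genes on wild-type and 23.5% on APdE9 sections. Of 11 microglia markers 10 were lower and 1 higher in adult cells on wild-type sections (median -4.49), and 10 were lower on APdE9 sections (median -3.63). List means ran from 1.48 to 2.17 over the neonatal arrays and from -2.45 to -1.53 over the adult arrays. Of 10 astrocyte markers 8 were lower and 2 higher on wild-type sections (median -1.03), and of 6 ependymal and choroid plexus markers, Ttr among them, 4 were lower (median -1.01). Of 11 meningeal fibroblast markers 3 were higher and 1 lower (median 0.41). Their part in the age differences of Aldh1a2, Rlbp1 and Ttr was not tested. By the labels, nearly all cells of the cultures stained for GFAP and very few for microglial proteins. Centred values carry no level, so the markers could not be used to check which cell types were present.

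**Figure D4:**
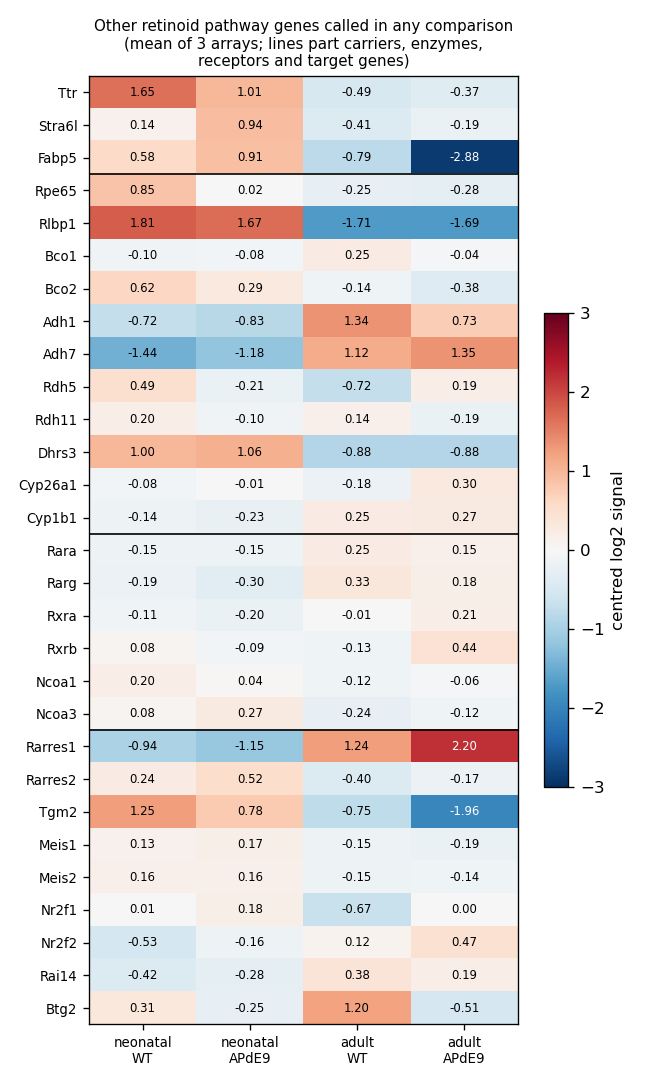
Mean centred log2 signal of 3 arrays (colour and printed value) in each of the 4 groups for the 29 other retinoid pathway genes called in any comparison, with lines between carriers, enzymes, receptors and known target genes. Rlbp1, Dhrs3 and Tgm2 are high in neonatal cells, Adh1, Adh7 and Rarres1 in adult cells, and Fabp5 is lowest in adult cells on APdE9 sections.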

How the data were processed

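Pools of cultured astrocytes gave RNA for 12 Affymetrix arrays of 1 colour. Per the submitters' processing notes the deposited values come from RMA (no version given), which usually returns log2 signals. In all 45095 complete probe sets the deposited log2 values had a median of 0 (within 1e-06), which shows centring of each probe set. In 4 deposited columns, recorded as a score, 6 values above 100 in size were set to missing and the rest used as log2 values. None of the 6 lay in the 9 genes. Array medians ran from -0.0385 to 0.0341. No filter on low signal was possible.

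After 64 controls were left out, 34945 of 45037 probe sets named a single gene, 932 several and 9160 none. Of the single-gene probe sets 34741 matched RefSeq, which gave the symbols. Probe sets naming 1 gene were averaged to a gene value. Group means of all 12 arrays were fitted with limma 3.58.1 (R 4.3.3, prior degrees of freedom 3.97, residual 8). The Benjamini-Hochberg adjustment ran over 18193 genes, with a threshold of 0.05. The members and lists were chosen with earlier results of these data known. Named were the members, up to 6 called pathway genes per direction and comparison, and the 3 genes most like each member. The scripts were tested on simulated data. For 50.3% of genes neonatal wild-type replicate 2 was the middle array of its group, against 22.9% to 40% for the remaining arrays. Same-numbered arrays deviated together (correlation over 0.1 in each pair) for section in neonatal cells (0.305, 0.147 and 0.519) and age on APdE9 sections (0.460, 0.206 and 0.473). For section in adult cells (0.348, -0.147 and 0.496) and age on wild-type sections (0.404, 0.025 and 0.405) only the pair numbered 2 fell short of this. The fit was repeated with each array left out, with array weights, with the replicate block, on only the arrays compared, with robust variances, after quantile normalization or median centring, with the median of probe sets, without the 40% of genes of lowest SD, and at a threshold of 0.1. Figures were drawn with matplotlib 3.10.9.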

Additional observations from a re-analysis of the deposited data

Results flagged for a closer look

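These genes are listed because the effect of the section differed between neonatal and adult cells. By the limma test of the difference of the effects (adult minus neonatal, adjusted p at most 0.05 over all genes), they were Fabp5 at -2.42, Tgm2 at -0.74, Adh1 at -0.51, Rdh5 at 1.61, Rarres1 at 1.16, Rpe65 at 0.80 and Rxrb at 0.74. Rdh5 had effects of opposite sign that each passed the test (-0.70 and 0.91). The probe sets of Tgm2 disagreed in the sign of the difference of the effects. Aldh1a1 is listed because every neonatal array on APdE9 sections lay above those on wild-type sections and every adult array below, a difference of effects of -0.87, for which no test is given. Its neonatal part, 0.20, was 0.13 without neonatal wild-type replicate 1.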

How the results depend on the processing

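Counts of other pathway genes called stayed within 1.5 times of the main count in 96 of 104 alternative settings. The exceptions concern section in neonatal cells (4 genes), with 13 under array weights and 2 when only the arrays compared were fitted. Leaving out single arrays gave 2 to 4 there, 8 to 11 for section in adult cells, 5 to 8 for the difference of the section effects, 20 to 25 for age on wild-type sections and 20 to 22 for age on APdE9 sections. For the array weights and the left-out arrays the share of all genes called is not given. With the replicate number as a block the counts were 4, 13, 8, 26 and 22 of 53. Under it 5.57%, 23.2%, 14.4%, 34.2% and 27.9% of all genes were called, also more than in the main fit. This block changed no call of a named pathway gene. For members, which have no calls, it lowered the SE of Rdh10 from 0.26 to 0.12 and of Aldh1a2 from 0.24 to 0.21. No called value of a named pathway gene changed sign under the alternatives run, and called genes that are not named were not followed in this way. Of the named pathway genes, 41 of 893 refits lost the call, with Tgm2 at 0.264 and Cyp26a1 at 0.0544 under quantile normalization for section in neonatal and in adult cells. Differences of members moved by more than the spread between arrays in 12 of 801 refits, all under quantile normalization or the median of probe sets. Many of the 801 could not move a difference. Leaving out an array not compared, the replicate block and fitting only the arrays compared return the same difference between 2 groups. So does the median for a member with 1 probe set, so this share does not measure stability. The differences of Stra6, the neonatal section differences of Aldh1a2, Crabp1 and Rarb and the adult section difference of Aldh1a3 crossed 0 on leaving out single arrays or rescaling. Signal over background is unknown, so a flat gene such as Stra6 cannot be told from an undetected one.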
